A study of Mus musculus with 12 samples.

Results

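The hepatic transcripts of 10 genes of apolipoproteins and lipoprotein assembly were followed across sham, CLP and CLP+DCA mice: Apoa1, Apoa2, Apoa4, Apoa5, Apob, Apoc3, Apoe, Apom, Lcat and Mttp. These genes were chosen by name, as the rows of the count table that carry these symbols. All 10 were found among the 25611 genes of the table, and all 10 passed the filter on low counts that left 13190 genes for testing. Whole livers of 12 male C57BL/6J mice aged 8 to 10 weeks were sequenced, with 4 mice per group. In the CLP group, polymicrobial sepsis had been induced by cecal ligation and puncture (CLP) with a 22 gauge needle. Sham mice had undergone the incision without ligation or puncture. The CLP+DCA mice had the same CLP surgery and were injected with dichloroacetate (DCA), an inhibitor of the pyruvate dehydrogenase kinases, at 25 mg/kg at 24 hr. All livers were taken 30 hr post-surgery, which is 6 hr after that injection. Saline was given subcutaneously, as fluid, to mice of all 3 groups, and the authors' methods describe no injection without DCA at 24 hr. DCA without CLP was not analysed here.

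Apolipoproteins are the proteins that wrap lipid into particles the blood can carry, and the liver makes most of them. Very low density lipoprotein (VLDL) is built in the endoplasmic reticulum around 1 molecule of apolipoprotein B, onto which the microsomal triglyceride transfer protein, the product of Mttp, loads lipid. High density lipoprotein (HDL) forms around apolipoprotein A-I and matures as LCAT, the product of Lcat, esterifies its cholesterol. Apolipoproteins C-III and A-V slow and speed the clearance of triglyceride from these particles, and apolipoprotein E is a ligand for receptors that take up their remnants.

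Between 24436513 and 44266819 reads were counted on genes per mouse. Levels are given in CPM, the reads of a gene per 1000000 reads of its library after TMM normalization of library sizes, and differences as log2 fold changes of edgeR's quasi-likelihood test with their standard error (SE). A gene is called where its Benjamini-Hochberg adjusted p, taken over all genes tested, is under 0.05. Not all libraries resembled their group. Over the genes tested, the log2 CPM of CLP+DCA replicate 3 differed from the CLP mean by a root mean square of 0.636, from the mean of the other CLP+DCA mice by 0.990 and from the sham mean by 1.10. CLP replicates 1 and 3 were nearest to the CLP+DCA mean and CLP+DCA replicates 1 and 4 to the sham mean. No value in the count table shows whether a mouse received DCA, so the label of CLP+DCA replicate 3 could not be checked, and every CLP+DCA value below that includes this mouse rests on that label. Calls are therefore counted with and without it, and so are the differences of the members in which it was the highest or lowest CLP+DCA mouse. This mouse was picked out by these same expression values, for its nearness to CLP. Leaving it out therefore favours a difference between CLP+DCA and CLP, where 616 of 13288 genes were called without it and 1 of 13190 with it. Values without this mouse are no independent check of any comparison. The 10 hepatocyte markers together reached 60235 to 79711 CPM in sham, 26955 to 43228 in CLP and 25270.4 to 56415 in CLP+DCA. Alb was the largest part of these sums, at 46672 CPM on average in sham and 21571 in CLP. Of the 10, 8 were lower in CLP than in sham and 2, Hnf4a and Tdo2, were higher. Alb was the 1 called, against 2.78% of all genes, and 3 were called without CLP+DCA replicate 3, against 23.8%. The 10 neutrophil markers together reached at most 9.30 CPM in a sham mouse and 31.7 to 44.2 in CLP, and lay between 6.74 and 56.8 in CLP+DCA. Of the 9 tested, 8 were higher in CLP than in sham, 7 at an unadjusted p under 0.05, against 28.6% of all genes. Retnlg was the 1 called, against 2.78%, and 7 were called without CLP+DCA replicate 3, against 23.8%. Ly6g was the 1 that was lower, at 0.823 CPM on average in sham and 0.459 in CLP. Mpo, also under 1 CPM on average in every group, did not pass the filter on low counts. Summed Kupffer cell and macrophage markers ranged from 212 to 352 CPM in sham, from 329.6 to 421 in CLP and from 273 to 528 in CLP+DCA. The 10 stellate cell and bile duct markers together lay between 69.5 and 109 CPM in sham, between 131 and 351 in CLP and between 88.0 and 270 in CLP+DCA, where the highest mouse was replicate 3. Des alone lay between 3.32 and 172 CPM in CLP mice and between 1.71 and 2.54 in sham. Of the 10, 9 were higher in CLP than in sham, and 0 were called, against 2.78% of all genes. At an unadjusted p under 0.05 there were 6, against 28.6%, and 7 were called without CLP+DCA replicate 3, against 23.8%. Summed lymphocyte markers were low throughout, at 1.41 to 3.42 CPM in sham, 0.404 to 1.16 in CLP and 0.650 to 1.95 in CLP+DCA. The sums of the hepatocyte, neutrophil, stellate and bile duct, and lymphocyte lists did not overlap between sham and CLP. Apart from Fabp2, no intestinal or pancreatic marker averaged 1 CPM in any group. In whole liver, fewer cells of a type, less RNA per cell and a change of the markers themselves cannot be told apart. The part of these cell types in the results was not tested.

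Promoter sequences of the genes with groups that did not overlap in a comparison are shown so that the loci can be read beside the values. RefSeq (GRCm38.p6) gave a promoter for 9 of the 10 genes, and Apoc3 is named only. Each line below holds the 150 bases before a transcription start, 5′ to 3′ on the strand of the gene, for Apoa2 and Apoe, lower in CLP, for Apoa5, higher in CLP+DCA than in CLP, for Apom, lower in CLP+DCA than in sham, and for Lcat and Mttp, higher in CLP. By the coordinates of the count table, the start of Apoa2 shown lies inside the gene, and the other 5 lie at or before the start of theirs. Capitals mark TATAAA, the core of a TATA box.
Apoa2 (chr1:171224904-171225053, + strand): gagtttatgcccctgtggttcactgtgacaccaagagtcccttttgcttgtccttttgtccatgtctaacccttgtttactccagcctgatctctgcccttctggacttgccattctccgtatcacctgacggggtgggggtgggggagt
Apoe (chr7:19699189-19699338, - strand): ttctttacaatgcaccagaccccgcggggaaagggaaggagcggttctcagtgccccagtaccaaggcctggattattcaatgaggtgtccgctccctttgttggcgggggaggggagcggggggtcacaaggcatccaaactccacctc
Apoa5 (chr9:46268458-46268607, + strand): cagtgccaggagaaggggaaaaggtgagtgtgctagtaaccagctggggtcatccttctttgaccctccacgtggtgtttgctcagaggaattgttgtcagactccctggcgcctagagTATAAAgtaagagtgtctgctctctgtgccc
Apom (chr17:35131802-35131951, - strand): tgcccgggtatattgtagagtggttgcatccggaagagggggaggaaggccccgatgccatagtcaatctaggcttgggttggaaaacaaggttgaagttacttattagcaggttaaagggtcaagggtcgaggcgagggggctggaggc
Lcat (chr8:105943403-105943552, - strand): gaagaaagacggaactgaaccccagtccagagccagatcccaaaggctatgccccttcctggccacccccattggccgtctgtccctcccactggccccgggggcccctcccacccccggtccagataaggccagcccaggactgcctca
Mttp (chr3:138143419-138143568, - strand): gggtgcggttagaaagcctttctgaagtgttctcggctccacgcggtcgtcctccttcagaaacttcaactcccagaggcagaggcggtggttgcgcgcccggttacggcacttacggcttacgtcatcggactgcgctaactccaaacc
Windows of 300 bases, from 250 before to 50 after a start, were searched on both strands for TATAAA, for the nuclear receptor motifs AGGTCA and AGTTCA, for the HNF1 motif GTTAAT and for the HNF4 sites CAAAGTCCA and CAAAGGTCA, the last of which contains AGGTCA. Of all 32851 promoters of the table, 13.6% held TATAAA, 16.3% AGGTCA, 14.0% AGTTCA, 7.10% GTTAAT, 0.475% CAAAGTCCA and 0.478% CAAAGGTCA. TATAAA was found at Apoa5, at Apob, at the inner start of Apoa2, outside the bases shown, and at a start of Apoe inside the gene. AGTTCA was found at Apoa1 and Apoa4, AGGTCA at the outer start of Apoa2, where the gene of the count table begins, and GTTAAT at a further start inside Apoe. None of the 6 motifs was in the windows of Apom, Lcat and Mttp or at the start of Apoe shown, and neither HNF4 site was in the windows of any of the 9 genes. These matches are descriptions of letters and were not tested as sites.

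The 10 transcripts made up a sizeable share of all hepatic reads. They took 3.89% ± 0.227 (SD, n = 4) of the reads of sham mice, 2.60% ± 0.499 in CLP and 3.09% ± 0.797 in CLP+DCA. The lowest sham mouse, at 3.64%, lay above the highest CLP mouse, at 3.08%, and CLP+DCA replicate 3, at 1.90%, lay below all other mice. Such a share also falls when other transcripts rise, and the 35 acute phase genes followed here took 13.6% to 15.9% of the reads in sham, 23.0% to 37.9% in CLP and 17.6% to 36.8% in CLP+DCA. With the reads of those 35 genes left out of the total, sham mice had a share of 4.56% ± 0.216, CLP mice 3.74% ± 0.363 and CLP+DCA mice 4.00% ± 0.676. The lowest sham mouse, at 4.33%, still lay above the highest CLP mouse, at 4.07%. Much of the fall in the share of all reads was of Apoe alone. Sham mice had 1.60% ± 0.114 of their reads on Apoe, CLP mice 0.806% ± 0.227 and CLP+DCA mice 1.17% ± 0.415. The 10 genes did not fall together: by edgeR, 7 were lower in CLP than in sham and 3, Apob, Lcat and Mttp, were higher. The share without the acute phase genes was not split by gene.

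Levels of different genes are compared per kilobase of the longest coding transcript, since long transcripts give more reads. In sham, Apoe was highest at 10777 ± 594 CPM per kb, followed by Apoa2 at 9393 ± 1284 and Apoa1 at 6533 ± 553. The ranges of Apoe and Apoa2 overlapped on this scale, although Apoe was above Apoa2 within each sham mouse. Those of Apoa2 and Apoa1 did not overlap. Apoc3 came next at 1623 ± 168 CPM per kb, then Apoa5 at 557 ± 75.9 and Apob at 449 ± 37.4. The last ranges overlapped, although Apoa5 was above Apob within each sham mouse. Lcat stood at 368 ± 12.8 CPM per kb, Apom at 210.1 ± 15.4, Apoa4 at 149 ± 55.2 and Mttp at 61.9 ± 5.18, and of these only Apom and Apoa4 overlapped. In CLP, Apoe, at 6034 ± 1133 CPM per kb, Apoa1, at 5646 ± 869, and Apoa2, at 5021 ± 1296, lay within 1 SD of each other. Within mice, Apoe was above Apoa2 in each CLP mouse, and above Apoa1 in each but replicate 4. In CLP+DCA they stood at 8078 ± 2589, 5933 ± 1652 and 6710.5 ± 2627 CPM per kb, again within their spread between mice. Within each CLP+DCA mouse, Apoe was above both Apoa1 and Apoa2, whose own order differed between mice.

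The first comparison asked what sepsis does to these transcripts. In CLP versus sham, Apoc3 was the only one of the 10 genes that was called, with a fall to 654 ± 43.9 CPM (SD, n = 4) from 1151 ± 119 in sham, against 2.78% of all genes tested. At an unadjusted p under 0.05, 6 of the 10 genes passed, 4 lower in CLP (Apoa2, Apoa5, Apoc3 and Apoe) and 2 higher (Lcat and Mttp), against 28.6% of all genes. Mouse by mouse, 5 of the 10 genes had CLP and sham groups that did not overlap, against 26.5% of genes tested. Apoa2, Apoc3 and Apoe were lower in every CLP mouse than in every sham mouse, as were 14.2% of genes, and Lcat and Mttp were higher, as were 12.2%. The median log2 fold change was -0.12 over the 10 genes and 0.02 over all genes tested. With library sizes alone in place of TMM, these medians were -0.29 and -0.15, so that part of any difference on that scale is a shift of all genes. The number of calls depended on CLP+DCA replicate 3, although that mouse is in neither group, because a single fit shares 1 estimate of the spread over all 12 mice. Without it, 5 genes were called, Apoa2, Apoa5, Apoc3 and Apoe lower and Lcat higher, against 23.8% of all genes. Leaving out CLP replicate 3 gave 3 calls (Apoa5, Apoc3 and Lcat), against 7.46% of genes. Leaving out any sham mouse, CLP replicate 1, 2 or 4, or CLP+DCA replicate 1 gave 0. Over all genes, these last fits called only 10 to 129, in place of 367 with all mice. In a fit of the 8 sham and CLP mice alone, edgeR called 4 of the 10 (Apoa2, Apoc3, Apoe and Lcat), against 18.3% of genes, and DESeq2 called 6 (these with Apoa5 and Mttp), against 23.3%. On all 12 mice DESeq2 called 5 (the same without Mttp), against 13.0%, and voom called 6, against 26.2%.

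The second comparison set DCA-treated septic mice beside sham. In CLP+DCA versus sham, edgeR called 0 of the 10 genes, against 0.0379% of all genes, and 1 (Apoc3) had an unadjusted p under 0.05, against 13.0%. DESeq2 called 0 as well, on the 8 mice (against 169 of 14106 genes) and on all 12 (against 1.83% of all genes). With sample quality weights, limma voom called Apoc3, against 3.76% of genes. The groups of 4 genes did not overlap, against 9.76% of all genes: Apoc3, Apoe and Apom were lower in CLP+DCA and Lcat was higher. Without CLP+DCA replicate 3, the fit again called 0 of the 10, against 0.0828%. The median log2 fold change was -0.15 over the 10 genes and 0.01 over all.

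The third comparison asked what DCA changes in septic mice. In CLP+DCA versus CLP, edgeR called 0 of the 10 genes, against 0.00758% of all genes, and 3 had an unadjusted p under 0.05, Apoa5 higher and Apob and Mttp lower, as did 1319 of the 13190 genes. DESeq2 on all 12 mice called Apoa5, against 0.815% of genes, and DESeq2 on the 8 mice called none, against 80 of 13237 genes. From voom there were 5 calls, Apoa2, Apoa5 and Apoe higher and Apob and Mttp lower, against 10.2%. Apoa5 was the only gene whose groups did not overlap, against 4.37% of genes. Without CLP+DCA replicate 3, Apoe was called higher, against 4.64% of genes, and 4 genes, Apoa2, Apoa5, Apoc3 and Apoe, were higher in every remaining CLP+DCA mouse than in every CLP mouse, against 22.8% of genes without overlap. Without CLP+DCA replicate 4, the genes without overlap were 3, Apoa5 higher and Apob and Mttp lower, against 7.28% of all genes. Without CLP replicate 3 they were 3, Apoa5 higher and Apob and Apom lower, against 8.37%. The median log2 fold change of the 10 genes was -0.02, beside 0.01 over all genes. The 3 comparisons share their groups, so that a low CLP value enters the first and the third with opposite signs.

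**Figure D1:**
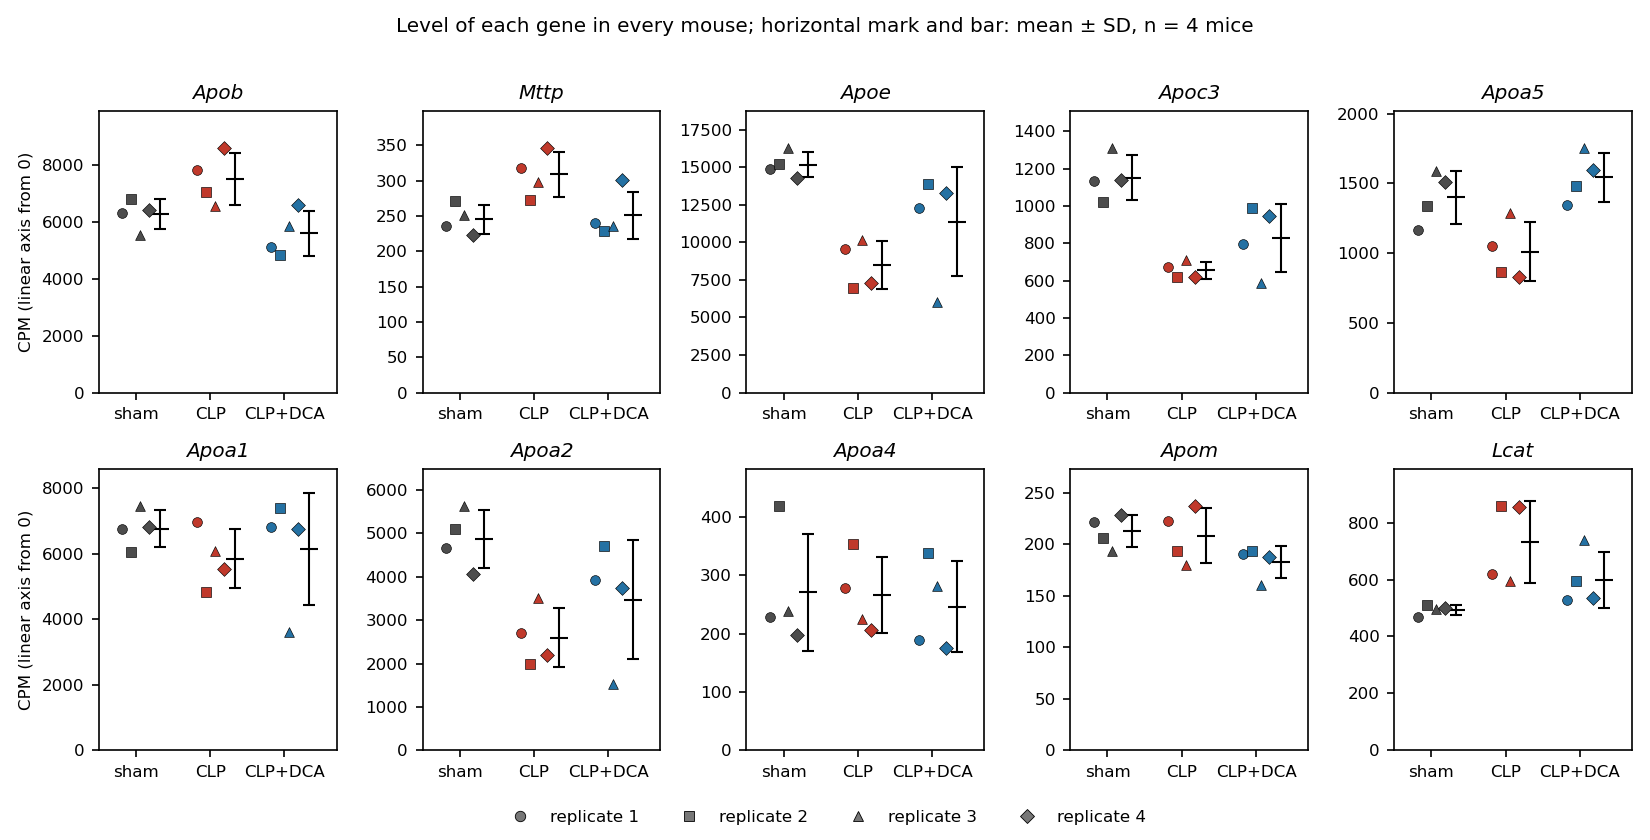
Level of each of the 10 genes in every mouse, in CPM on a linear axis from 0, with sham in grey, CLP in red and CLP+DCA in blue, the replicate number as the shape of the point, and the mean ± SD of 4 mice at the right of each group. Apoc3 lies at 618 to 709 CPM in the 4 CLP mice and at 1021 to 1311 in the 4 sham mice, and CLP+DCA replicate 3 (triangle) is the lowest CLP+DCA mouse for Apoe, Apoc3, Apoa1, Apoa2 and Apom.

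By edgeR on all 12 mice, neither the scaffold nor the loader of VLDL was called in any comparison, whereas DESeq2 on the 8 mice and voom called Mttp in CLP versus sham, and voom called both genes in CLP+DCA versus CLP. Apob, the structural protein of VLDL (chr12:7977677-8016839, + strand, mm10), was at 6292, 6789.6, 5547 and 6418 CPM in the 4 sham mice, at 7822, 7024, 6551 and 8589 in CLP and at 5098, 4846, 5851 and 6581 in CLP+DCA. Of the CLP mice, 3 lay above every sham mouse, and CLP replicate 3 lay inside the sham range. The log2 fold change was 0.26 (SE 0.15, adjusted p = 0.265) in CLP versus sham and -0.16 (SE 0.15) in CLP+DCA versus sham. It was -0.42 (SE 0.15, adjusted p = 0.407) in CLP+DCA versus CLP, where the 2 groups overlapped by a single mouse on each side. With CLP+DCA replicate 3 left out, that difference was -0.44 (SE 0.16, adjusted p = 0.0963), and under voom with all 12 mice its adjusted p was 0.0250. The adjusted p was 0.289 in DESeq2 on the 8 mice, 0.0925 in DESeq2 on all 12 and 0.589 in edgeR with the replicate block.

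Mttp (chr3:138089855-138143418, - strand), which encodes the large subunit of the transfer protein, was at 236, 271, 251 and 223 CPM in sham, at 318, 272, 298 and 346 in CLP and at 239.7, 229, 235 and 301 in CLP+DCA. All 4 CLP mice were above all 4 sham mice, the nearest pair by a narrow margin, and CLP+DCA replicate 4 alone reached the CLP range. The difference was 0.33 (SE 0.12, edgeR adjusted p = 0.114, DESeq2 on the 8 mice 0.0170, voom 0.0224) in CLP versus sham and -0.30 (SE 0.12, edgeR adjusted p = 0.455, voom 0.0442) in CLP+DCA versus CLP. For the former, the adjusted p was 0.0535 in DESeq2 on all 12 mice and 0.0619 in edgeR without CLP+DCA replicate 3. For the latter, DESeq2 gave an adjusted p of 0.596 on the 8 mice and 0.343 on all 12. In CLP+DCA versus sham the difference was 0.03 (SE 0.12), and it turned to -0.02 with library sizes alone. Apob and Mttp varied together, with a Pearson r of 0.803 over the 12 libraries, a description in which the group means take part.

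Apoe, the remnant ligand that hepatocytes and macrophages both make (chr7:19696244-19699188, - strand), had the highest mean CPM of the 10 in each of the 3 groups, although Apob was above it in CLP replicates 2 and 4. It was at 14898, 15226, 16286 and 14289 CPM in sham, at 9558, 6949.8, 10150.4 and 7324 in CLP and at 12286, 13903, 5998 and 13305 in CLP+DCA. Every CLP and every CLP+DCA mouse lay below every sham mouse, and CLP+DCA replicate 3 lay below all others. In CLP versus sham the log2 fold change was -0.84 (SE 0.25), a level 1.79-fold lower, with an adjusted p of 0.0731 in the fit of all mice and of 0.00481 without CLP+DCA replicate 3. Against CLP, CLP+DCA mice differed by 0.42 (SE 0.25, adjusted p = 0.594) with all mice, and 0.63 (SE 0.16, adjusted p = 0.0447) without that mouse, a level 1.55-fold higher. Against sham, they differed by -0.42 (SE 0.25, adjusted p = 0.470) and -0.21 (SE 0.16) without that mouse.

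Apoc3 and Apoa5 act in opposite directions on the clearance of plasma triglyceride. Apoc3 (chr9:46233050-46235636, - strand), which inhibits lipoprotein lipase and remnant uptake, was at 1135, 1021, 1311 and 1136 CPM in sham, at 672, 620.0, 709 and 618 in CLP and at 798, 987, 584 and 944 in CLP+DCA. The CLP mice lay close together and far below sham, and 3 of the 4 CLP+DCA mice fell between both groups. Apoc3 fell by 0.81 on the log2 scale in CLP versus sham (SE 0.16, edgeR adjusted p = 0.0366), a level 1.76-fold lower. With 1 mouse left out in turn the difference ranged from -0.87 to -0.75, and the adjusted p was above 0.05 without sham replicate 1 (0.0951), 2 (0.0761), 3 (0.101) or 4 (0.0862), without CLP replicate 1 (0.0685), 2 (0.113) or 4 (0.102) and without CLP+DCA replicate 1 (0.0562). Those fits called only 10 to 129 of all genes, in place of 367 with all mice. Without CLP+DCA replicate 3, where 3157 genes were called, the adjusted p of Apoc3 was 0.00224. CLP+DCA mice differed from sham by -0.47 (SE 0.16, adjusted p = 0.301), and without CLP+DCA replicate 3 by -0.34 (SE 0.13, adjusted p = 0.440). From CLP they differed by 0.34 (SE 0.16, adjusted p = 0.509), and without CLP+DCA replicate 3 by 0.47 (SE 0.12, adjusted p = 0.0515).

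Apoa5 (chr9:46268608-46271921, + strand), an activator of triglyceride clearance made mainly by the liver, had the largest difference of the 10 between DCA-treated and untreated septic mice with all 12 mice in the fit, and a smaller difference than Apoa2 and Apoe without CLP+DCA replicate 3. It was at 1163, 1339, 1592 and 1512 CPM in sham, at 1051, 866, 1289.9 and 830.1 in CLP and at 1342, 1483, 1755 and 1594 in CLP+DCA. Each CLP+DCA mouse lay above each CLP mouse, including CLP+DCA replicate 3, which was the highest of all 12. The difference of CLP+DCA from CLP was 0.61 on the log2 scale (SE 0.17), a level 1.53-fold higher, but its adjusted p was 0.307 in edgeR and 0.0359 in DESeq2 on all 12 mice. Without CLP+DCA replicate 3 it was 0.55 (SE 0.17, adjusted p = 0.0749). In CLP versus sham Apoa5 differed by -0.47 (SE 0.17, adjusted p = 0.103), with CLP replicate 3 inside the sham range, and its adjusted p was 0.0494 without CLP+DCA replicate 3. The difference of CLP+DCA from sham was 0.14 (SE 0.17), and 0.07 (SE 0.17) without that mouse.

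Of the 2 main structural proteins of HDL, edgeR on all 12 mice called neither in any comparison. Apoa1 (chr9:46228630-46230469, + strand), which encodes the scaffold of HDL, was at 6737, 6054, 7454 and 6802 CPM in sham, at 6953, 4819, 6069.6 and 5533 in CLP and at 6807, 7387, 3612 and 6758 in CLP+DCA. The groups overlapped in all 3 comparisons, and CLP+DCA replicate 3 was the lowest of the 12 mice. Its log2 fold change was -0.21 (SE 0.22, adjusted p = 0.521) in CLP versus sham, -0.14 (SE 0.22) in CLP+DCA versus sham and 0.07 (SE 0.22) in CLP+DCA versus CLP. With CLP+DCA replicate 3 left out, the last 2 were 0.05 (SE 0.15) and 0.26 (SE 0.15).

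Apoa2 (chr1:171221564-171226379, + strand), the second protein of HDL, was at 4655, 5101, 5636 and 4069.8 CPM in sham, at 2709, 1994, 3501 and 2200.1 in CLP and at 3925, 4700.2, 1531 and 3748 in CLP+DCA. All CLP mice lay below all sham mice, while 3 of the 4 CLP+DCA mice were above every CLP mouse and the remaining mouse, replicate 3, was below all. The difference of CLP from sham was -0.90 (SE 0.30), a level 1.87-fold lower, with an adjusted p of 0.0901 with all mice and of 0.00816 without CLP+DCA replicate 3. Against CLP, CLP+DCA mice differed by 0.42 (SE 0.30, adjusted p = 0.675) with all mice and 0.66 (SE 0.20, adjusted p = 0.0655) without that mouse. Against sham, they differed by -0.49 (SE 0.30, adjusted p = 0.490) with all mice and -0.24 (SE 0.20) without that mouse. Over the 12 libraries Apoa2 followed Apoe with a Pearson r of 0.982 and Apoa1 with 0.844.

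Lcat (chr8:105939551-105943402, - strand), which esterifies cholesterol on HDL, was the gene of the 10 with the tightest sham group, a coefficient of variation of 3.47%. It was at 469.8, 509, 496 and 502 CPM in sham, at 619, 859, 596 and 854 in CLP and at 527, 596, 739 and 537 in CLP+DCA. Every CLP and every CLP+DCA mouse lay above every sham mouse, with CLP+DCA replicate 3 the highest of its group. The difference was 0.57 (SE 0.16, adjusted p = 0.0685) in CLP versus sham, a level 1.48-fold higher, and its adjusted p was 0.0146 without CLP+DCA replicate 3 and 0.0403 without CLP replicate 3. It was 0.28 (SE 0.16, adjusted p = 0.453) in CLP+DCA versus sham and -0.29 (SE 0.16, adjusted p = 0.573) in CLP+DCA versus CLP, which became 0.16 (SE 0.15) and -0.40 (SE 0.15, adjusted p = 0.107) without CLP+DCA replicate 3. Library sizes alone lowered the difference of CLP from sham to 0.37.

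Apom (chr17:35128997-35131752, - strand), which carries sphingosine-1-phosphate on HDL, was at 222, 207, 194 and 229 CPM in sham, at 223, 194, 180.0 and 237 in CLP and at 191, 194, 160.3 and 188 in CLP+DCA. The CLP range enclosed the sham range, whereas 3 CLP+DCA mice, at 188 to 194 CPM, were just under the lowest sham mouse and replicate 3 was further below. Its difference was -0.03 (SE 0.12, adjusted p = 0.885) in CLP versus sham, -0.22 (SE 0.12, adjusted p = 0.434) in CLP+DCA versus sham and -0.19 (SE 0.12) in CLP+DCA versus CLP, the last 2 being -0.16 and -0.13 (SE 0.11 each) without CLP+DCA replicate 3. Apoa4 (chr9:46240844-46243458, + strand), made by intestine and liver, was at 229, 419, 238 and 197 CPM in sham, at 278, 353, 225 and 206 in CLP and at 188, 338, 282 and 176 in CLP+DCA. It was the most variable of the 10 in sham, with a coefficient of variation of 37.0%, and replicate 2 was the highest mouse of each group. The groups overlapped throughout, with differences of -0.03 (SE 0.28) in CLP versus sham, -0.14 (SE 0.28) in CLP+DCA versus sham and -0.11 (SE 0.28) in CLP+DCA versus CLP, the last of which was 0.0015 with library sizes alone.

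**Figure D2:**
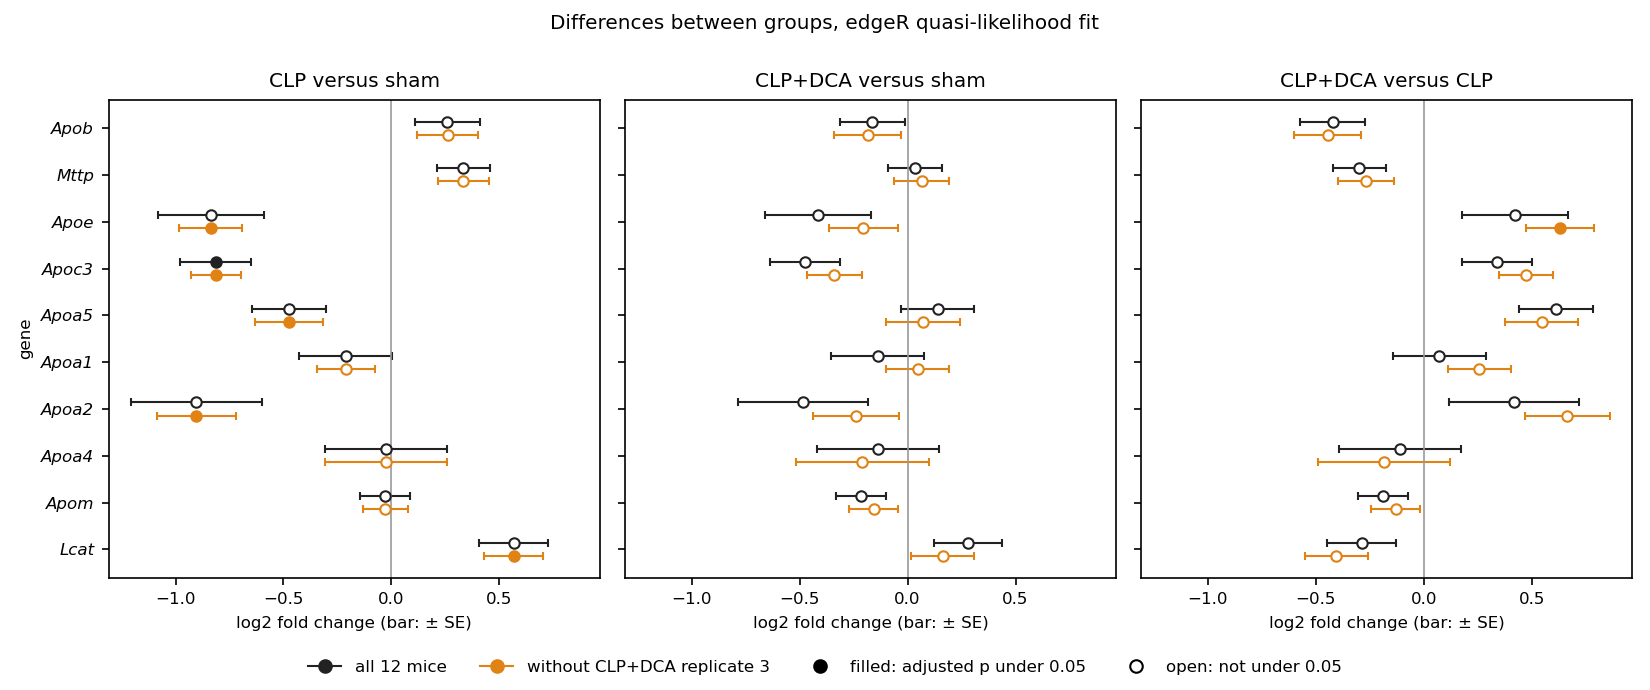
Log2 fold change of each of the 10 genes with its SE as a bar, for CLP against sham (left), CLP+DCA against sham (middle) and CLP+DCA against CLP (right), from edgeR on all 12 mice (black) and without CLP+DCA replicate 3 (orange), with filled points where the adjusted p is under 0.05. In CLP versus sham both fits give the same values, the bars of Apoa2 and Apoe are shorter in the second, and 1 against 5 points are filled.

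On chromosome 9, Apoa1, Apoc3, Apoa4 and Apoa5 lie within 43292 bases. Apoa1 and Apoc3 run toward each other with 2580 bases between them, Apoa4 follows 5207 bases after Apoc3 and Apoa5 25149 bases further on. Since their reads come from the same library, each neighbour was also expressed per 100 Apoa1 reads, which needs no scaling between mice. Apoc3 gave 16.8, 16.9, 17.6 and 16.7 reads per 100 Apoa1 reads in sham, 9.66, 12.9, 11.7 and 11.2 in CLP and 11.7, 13.4, 16.2 and 14.0 in CLP+DCA. The sham mice were nearly equal and above all others on this ratio. Apoc3 was already called from these same counts, so that the ratio is not independent of that call. The difference of the mean log2 ratio was -0.59 in CLP versus sham (two-sided exact permutation p = 0.0286, the smallest p that 4 against 4 mice allow), and 0.171 after adjustment over the 6 ratios tested. In CLP+DCA versus CLP it was 0.28 (exact permutation p = 0.0571, adjusted p = 0.171).

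Apoa5 gave 17.3, 22.1, 21.4 and 22.2 reads per 100 Apoa1 reads in sham, 15.1, 18.0, 21.3 and 15.0 in CLP and 19.7, 20.1, 48.6 and 23.6 in CLP+DCA. CLP+DCA replicate 3 stood apart here, since Apoa5 was at its highest and Apoa1 at its lowest in that mouse. The log2 ratio differed by -0.27 in CLP versus sham (exact permutation p = 0.114, adjusted p = 0.171) and by 0.60 in CLP+DCA versus CLP (exact permutation p = 0.0857, adjusted p = 0.171). Without CLP+DCA replicate 3 the latter was 0.30 (exact permutation, adjusted p = 0.257), where 3 against 4 mice cannot give a p below 0.0571. Apoa4 gave 2.60 to 7.81 reads per 100 Apoa1 reads over the 12 mice, and its log2 ratio differed by 0.23 (exact permutation p = 0.457, adjusted p = 0.549) in CLP versus sham and by -0.16 (exact permutation p = 0.657) in CLP+DCA versus CLP. None of the 6 ratios passed the threshold after adjustment.

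**Figure D3:**
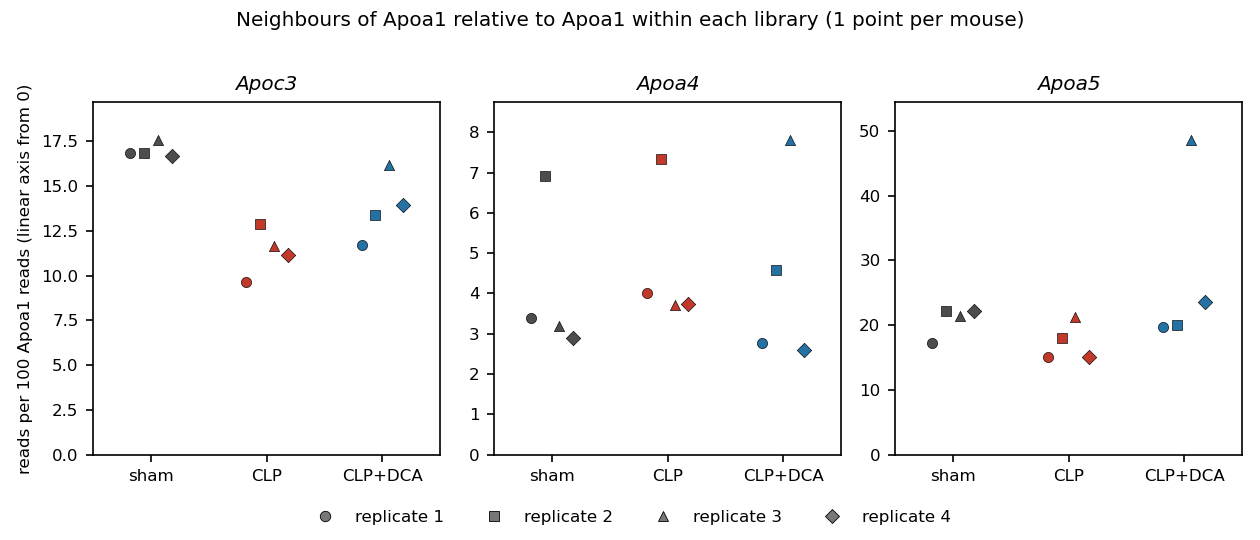
Reads of Apoc3, Apoa4 and Apoa5 per 100 Apoa1 reads in each library, on linear axes from 0, with 1 point per mouse and the replicate number as its shape. The 4 sham mice of Apoc3 lie between 16.7 and 17.6 and all CLP mice below 13, and CLP+DCA replicate 3 is the highest mouse for Apoa4, at 7.81, and for Apoa5, at 48.6.

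On chromosome 7, Apoe is the last of 4 apolipoprotein genes on the same strand that span 27610 bases with Apoc2, Apoc4 and Apoc1. Apoc1, 3584 bases from Apoe, encodes a small protein of VLDL and HDL that slows remnant uptake. Its level was 2069 ± 152 CPM in sham, against 1158 ± 204 in CLP and 1607 ± 536 with DCA, with a difference of -0.84 (SE 0.24, adjusted p = 0.0695) in CLP versus sham, beside -0.84 for Apoe. Apoc4 differed by -0.38 (SE 0.24, adjusted p = 0.296) and Apoc2, the cofactor of lipoprotein lipase, by -0.13 (SE 0.12, adjusted p = 0.470), at 6.50 and 5.94 CPM in sham and CLP. The genes of the list of other apolipoproteins were tested with 7 of 8 members, and edgeR on all 12 mice called 0 in each comparison, with 1 higher and 1 lower at an unadjusted p under 0.05 in CLP versus sham, against 28.6% of all genes. In the fit without CLP+DCA replicate 3, 2 were called in CLP versus sham, Apoc1 lower and Saa4 higher, against 23.8% of all genes, and Apoc1 was called higher in CLP+DCA versus CLP, against 4.64%. Saa4, a constitutive apolipoprotein of HDL, was at 711 ± 209 CPM in sham and 1219 ± 115 in CLP, a difference of 0.78 (SE 0.27, adjusted p = 0.0988). Apoh and Clu, 2 further abundant apolipoproteins, differed by 0.01 (SE 0.16) and 0.23 (SE 0.12).

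In the fit of all 12 mice, the machinery around the 10 genes was mostly not called either. Of 16 genes of VLDL assembly and secretion, 0 were called by edgeR in any comparison, 5 had an unadjusted p under 0.05 in CLP versus sham, all higher in CLP, against 28.6% of all genes in either direction, and 5 were called without CLP+DCA replicate 3, against 23.8%. Vmp1, a membrane protein of the endoplasmic reticulum needed for lipoprotein release, was at 104 ± 3.10 CPM in sham and 196 ± 59.0 in CLP (log2 fold change 0.92, SE 0.25, adjusted p = 0.0634). Stx5a, a SNARE of transport from the endoplasmic reticulum to the Golgi, differed by 0.50 (SE 0.15, adjusted p = 0.0756). None of the 5 factors of Apob mRNA editing, which makes the short form apoB-48, was called by edgeR on all 12 mice or had an unadjusted p under 0.05 in CLP versus sham, and those with the smallest p, Syncrip and Rbm47, differed by 0.21 (SE 0.10) and -0.34 (SE 0.17) there. Apobec1, the editing enzyme itself, was called lower in CLP+DCA versus CLP once CLP+DCA replicate 3 was left out, against 4.64% of all genes.

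Among 10 genes of lipoprotein receptors and uptake, 1, Mylip, was called in CLP versus sham, against 2.78% of all genes. It was also the 1 called without CLP+DCA replicate 3, against 23.8%. Mylip, the ubiquitin ligase that targets the LDL receptor for degradation, rose from 4.15 ± 0.287 to 8.24 ± 2.08 CPM (log2 fold change 0.99, SE 0.21, edgeR adjusted p = 0.0403). Lsr, a receptor for triglyceride-rich lipoproteins, differed by 0.28 (SE 0.10, adjusted p = 0.102). Of 8 genes of HDL formation and remodelling, 1 was called in CLP versus sham, against 2.78% of all genes, and 3 without CLP+DCA replicate 3 (Bmp1 and Abca1 higher and Lipc lower), against 23.8%. Bmp1, the protease that trims pro-apolipoprotein A-I, rose from 122 ± 3.92 to 164 ± 11.4 CPM (0.43, SE 0.09, edgeR adjusted p = 0.0415). Lipc, hepatic lipase, was at 95.2 ± 13.4 CPM in sham, against 25.5 ± 15.3 in CLP and 59.2 ± 30.0 with DCA (-1.89, SE 0.51, adjusted p = 0.0634 in CLP versus sham). Of 7 lipases and their regulators edgeR on all 12 mice called 0, with 2 at an unadjusted p under 0.05, against 28.6% of all genes. Without CLP+DCA replicate 3, 1, Angptl4, was called higher, against 23.8%. Angptl4, an inhibitor of lipoprotein lipase, was nearest with all mice, at 65.3 ± 26.0 CPM in sham and 155 ± 44.7 in CLP (1.25, SE 0.30, adjusted p = 0.0516). Gpihbp1, which anchors that lipase in capillaries, differed by 0.53 (SE 0.22, adjusted p = 0.147).

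Of 21 regulators of apolipoprotein transcription, 2 were called in CLP versus sham, in opposite directions, against 2.78% of all genes. Without CLP+DCA replicate 3, 6 were called, 5 lower (Cebpa, Nr1h3, Ppara, Ppargc1b and Srebf1) and 1 higher (Srebf2), against 23.8%. Srebf1, the regulator of fatty acid synthesis, fell from 336 CPM in sham (305 to 356) to 87.6 CPM in CLP (45.2 to 140.3), with 191 CPM in CLP+DCA (51.3 to 266), a difference of -1.94 in CLP versus sham (SE 0.45, edgeR adjusted p = 0.0475). Srebf2, the regulator of cholesterol synthesis and of the LDL receptor, rose from 58.1 ± 2.71 to 93.0 ± 10.5 CPM (0.68, SE 0.11, edgeR adjusted p = 0.0202), with 69.6 CPM in CLP+DCA. Of the 21, 15 were lower and 6 higher in CLP, with a median of -0.11, beside 0.02 over all genes. Hnf4a, the nuclear receptor that drives many apolipoprotein promoters, differed by 0.05 (SE 0.12). With all mice, Ppara differed by -0.83 (SE 0.27), Ppargc1b by -0.91 (SE 0.26), Cebpa by -0.51 (SE 0.17) and Nr1h3 by -0.25 (SE 0.17), and none of these was called. Both Srebf genes were also called without CLP+DCA replicate 3 in CLP+DCA versus CLP, Srebf1 higher by 1.44 (SE 0.29, adjusted p = 0.0281) and Srebf2 lower, at -0.48 (SE 0.11, adjusted p = 0.0331). Of the 74 tested genes of these 7 lists, edgeR called 4 in CLP versus sham, 0 in CLP+DCA versus sham and 0 in CLP+DCA versus CLP, against 2.78%, 0.0379% and 0.00758% of all genes. With CLP+DCA replicate 3 left out it called 18, 0 and 5, against 23.8%, 0.0828% and 4.64%. At an unadjusted p under 0.05 with all mice these were 14 higher and 7 lower, 7 higher and 6 lower, and 2 higher and 9 lower, in the same order, against 28.6% and 13.0% of all genes in the first 2 and 1319 of 13190 in the last.

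The 10 genes differ widely in transcript length, and the difference of CLP from sham moved with length over all genes. The median log2 fold change was -0.14 over 600 tested genes with a transcript of at most 1000 bases, -0.09 over 2555 genes of 1000 to 2000 bases, 0.02 over 5078 genes of 2000 to 4000 bases and 0.10 over 4275 longer genes. Among genes of at least 100 CPM on average it was -0.15 (n = 98), -0.26 (n = 334), -0.13 (n = 509) and 0.02 (n = 316). The shortest members, Apoa2 at 518 bases and Apoc3 at 709, were among the lower ones, and the longest, Mttp at 3963 and Apob at 13934, were higher. Of the others, Apom, at 1013 bases, differed by -0.03, Apoa1, at 1035, by -0.21, Apoa4, at 1815, by -0.03 and Apoa5, at 2515, by -0.47. The medians do not give the spread of the genes within a class of length. Apoe, at 1408 bases, and Lcat, at 1342, had almost the same length and lay on opposite sides, with a GC content of 59.5% and 55.5%. The part of transcript length in these differences was not tested.

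**Figure D4:**
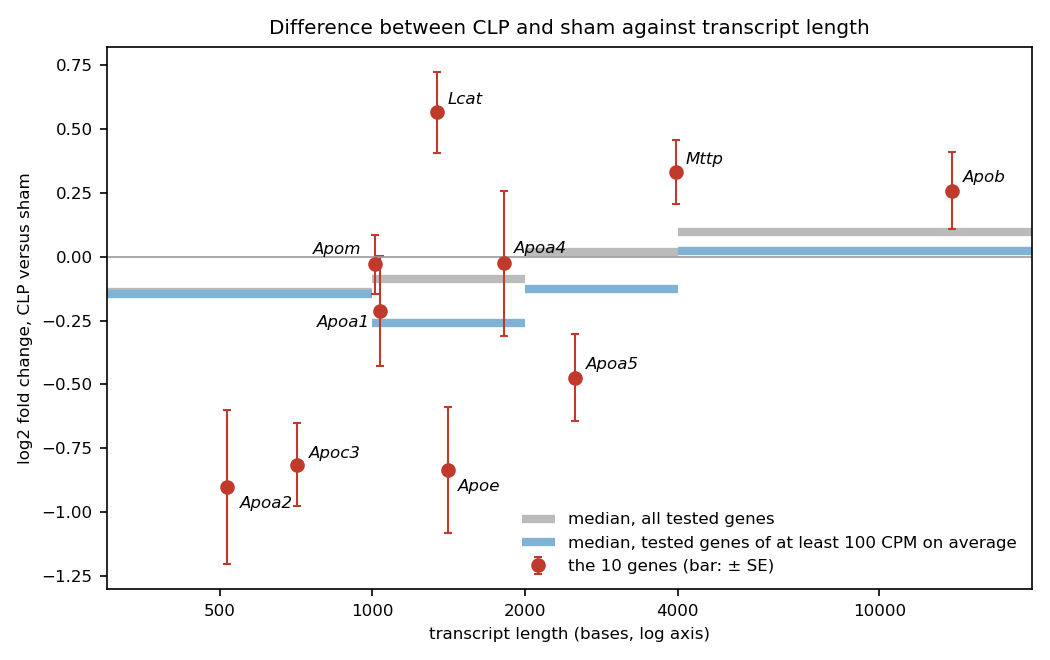
Log2 fold change of CLP versus sham against the length of the longest coding transcript on a log axis, with the 10 genes as red points (bar: SE) and the median of all tested genes (grey) and of genes of at least 100 CPM (blue) as horizontal bars over each class of length. Apoa2, Apoc3 and Apoe lie between -0.90 and -0.81, below the bars, and Lcat, at 0.57, lies above the bars at almost the same length as Apoe.

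The genes most like each member were found by the Pearson correlation of log2 CPM over the 12 libraries, which share the group differences and the scaling, so that these values are a description. Apoe and Apoa2 had close companions, Ptms (0.991) and Pgrmc1 (0.990) for Apoe and Pts (0.994) and Prdx2 (0.989) for Apoa2. Apoc3 was most like H2-Q10 (0.981), Apoa1 like Hrg (0.972) and Colec10 (0.972), and Apob like Abca6 (0.926). Lcat was most like Saa1 (0.984), Saa2 (0.982) and Tnfaip3 (0.981), the first 2 acute phase apolipoproteins, and its nearest member of the 10 was Apob at 0.459. Apoa5 was nearest to Cyp26c1 (0.928), Mttp to Cpox (0.898), Apom to Sox5 (0.917) and Apoa4 to Elmo3 (0.872), and no other member correlated above 0.24 with Apoa4.

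Antisense genes annotated over Apoa4 (Gm10680 and Gm47528), Apoa5 (Gm47544) and Mttp (Gm43691) are not rows of the count table. The library kit does not mark strand, so that reads of such transcripts could not be told from those of the gene.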

How the data were processed

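The authors prepared poly(A) libraries from whole liver with the TruSeq RNA kit v2 and sequenced paired ends on a NovaSeq. Per their processing notes, reads were aligned to mm10 with STAR 2.5 and counted per gene with featureCounts (Subread 1.5.0-p1). The strand setting and the gene annotation are not given in the sources used here. The deposited table holds raw counts for 25611 genes in 12 mice, 24436513 to 44266819 per mouse, of which all 12 columns were used. Each mouse was taken as 1 replicate under its label. PCR copies cannot be told from separate molecules in these reads, so that the error given is the SD between mice.

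Counts were analysed in R 4.3.3 with edgeR 4.0.16 (filterByExpr with a minimum count of 10, TMM, robust quasi-likelihood fit of all 12 mice, Benjamini-Hochberg FDR of 0.05 over 13190 genes) and tested on simulated data. The SE is the log2 fold change over the square root of its F statistic. CPM use TMM library sizes, and log2 CPM a prior count of 2. Alternatives were DESeq2 1.42.0, limma 3.58.1 (voom with sample quality weights), edgeR on the 8 mice compared, RLE, library size alone, scaling without the acute phase list, other filters, the replicate number as a block and leaving out each mouse. Ratios to Apoa1 used a pseudocount of 0.5 (alternative 5) and exact permutation tests, 6 in all. Lengths are those of the longest coding GENCODE vM21 transcript, and 94.8% of genes tested had one. The 10 genes and all lists were chosen with earlier results of these data known, and lists were written from general knowledge. Named are the 10 genes, and of each of 7 lists the called genes and the 2 with the smallest p in CLP versus sham. For likeness, the 3 genes with the highest correlation were taken. Genes named beside these (Apoc2, Apoc4, Apoh, Clu and Hnf4a) were chosen after their values were seen, as neighbours or known regulators, as were Abca1, Apobec1, Cebpa, Nr1h3, Ppara and Ppargc1b, for their calls without CLP+DCA replicate 3. Single genes of the marker lists were also named after their values were seen. The labels do not say more of the animals than their group, so that p-values measure the spread between these mice.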

Additional observations from a re-analysis of the deposited data

Results flagged for a closer look

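In each group of 4 mice, the highest and the lowest CPM of each of the 10 genes was compared with the nearest mouse by Dixon's ratio, over 30 groups, of which chance flags about 1 in 20. In 3 of them a mouse stood apart. Apoa1 was at 3612 CPM in CLP+DCA replicate 3, where the nearest CLP+DCA mouse was at 6758. Apom was at 160.3 CPM in the same mouse, with the nearest at 188. Mttp was at 301 CPM in CLP+DCA replicate 4, with the nearest at 239.7, and this was the highest value outside the CLP group. The low Apoa1 and Apom of CLP+DCA replicate 3 came with its place near the CLP mice over all genes (a root mean square of 0.636 from the CLP mean), and the part of that library in these values was not tested.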

How the results depend on the processing

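Of the 660 log2 fold changes of the 10 genes under other settings, 600 kept their direction and their side of the threshold, 31 gained a call, 9 lost it and 20 changed sign. The 9 losses were all of Apoc3 in CLP versus sham, under the replicate block and without 8 of the mice in turn. Those fits called only 10 to 129 of all genes, in place of 367. Of the 10 genes, the number called in CLP versus sham (1 with all mice) was 5 with DESeq2 on all 12 mice (1894 of 14517 genes called), 6 with DESeq2 and 4 with edgeR on the 8 mice, 6 with voom (3453 of 13190 genes) and 0 to 5 with 1 mouse left out (10 to 3157 of all genes). In CLP+DCA versus sham (0 called) voom called 1 (496 of 13190 genes). In CLP+DCA versus CLP (0 called) DESeq2 on all 12 mice called 1 (136 of 16696 genes), voom 5 (1341 of 13190) and leaving out a mouse 0 to 1 (0 to 616 of all genes). The members without overlap there were 1 to 4. Library size alone moved the calls of CLP versus sham over all genes from 216 higher and 151 lower to 100 and 109.

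Same-numbered mice did not deviate together: the correlation of their deviations from the group means was -0.054 to 0.090 between sham and CLP, -0.16 to 0.094 between sham and CLP+DCA and -0.46 to 0.55 between CLP and CLP+DCA, and 1 of 4 mice was closest to its own number in each. With the replicate block 0 of the 10 genes were called in CLP versus sham, and 46 genes in place of 367, and it changed no other call of the 10.

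The sign changes were of differences near 0 that passed no test. Apoa1 was 0.030 under voom and -0.24 to 0.046 with a mouse left out in CLP+DCA versus sham, and -0.045 to 0.26 in CLP+DCA versus CLP. Apoa4 was 0.012 under the replicate block and -0.19 to 0.26 with a mouse left out in CLP versus sham, -0.32 to 0.15 in CLP+DCA versus sham, and 0.0015 under library size alone and -0.31 to 0.057 in CLP+DCA versus CLP. Apom was 0.014 under voom and -0.097 to 0.036 in CLP versus sham. Mttp was -0.023 under library size alone, -0.0052 under voom and -0.065 to 0.086 in CLP+DCA versus sham. The log2 ratio of Apoa4 to Apoa1 was -0.0095 to 0.51 in CLP versus sham and -0.49 to 0.071 in CLP+DCA versus CLP. The cause was not tested. Shares of reads without the acute phase genes were 4.56%, 3.74% and 4.00% in sham, CLP and CLP+DCA. With 4 mice per group an exact test of 1 ratio cannot give a p below 0.0286, and 0.125 where same-numbered mice are paired.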

Other observations

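Several genes of the same lists, chosen after their values were seen, had large differences between CLP and sham with a wide spread between mice, and edgeR on all 12 mice called none of them. Ces1d, a hepatic lipase used in VLDL assembly, lay between 290.6 and 605 CPM in sham mice, between 1.10 and 194 in CLP and between 4.17 and 268 in CLP+DCA, a log2 fold change of -2.89 in CLP versus sham (SE 1.36, edgeR adjusted p = 0.186). The CLP mice did not reach the sham range, as for 14.2% of all genes tested, which were lower in CLP without overlap. Pon1, the paraoxonase carried on HDL, lay between 553 and 653 CPM in sham and between 100.6 and 458 in CLP (-0.99, SE 0.60, adjusted p = 0.281). Pon1 was likewise lower in every CLP mouse than in every sham mouse, as were those 14.2% of genes. Lpl, lipoprotein lipase itself, lay between 7.53 and 24.1 CPM in sham, reached 125 in a CLP mouse and lay between 7.63 and 13.6 in CLP+DCA. Ppara, a nuclear receptor of fatty acid use, lay between 287 and 413 CPM in sham and between 129.7 and 238 in CLP (-0.83, SE 0.27, adjusted p = 0.0869), and it was called lower without CLP+DCA replicate 3 (adjusted p = 0.0220).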
